A study of Homo sapiens with 30 samples.

Results

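The regions described here lie around the genes of 5 transcription factors of pancreatic progenitors: PDX1, NKX6-1, SOX9, PTF1A and MNX1. A region belonged to a locus when any base of it lay within 100 kb of the start site of the gene on the hg19 build, known here to the nearest kb, at 28494 kb of chromosome 13 for PDX1, 85419 kb of chromosome 4 for NKX6-1, 70117 kb of chromosome 17 for SOX9, 23481 kb of chromosome 10 for PTF1A and 156803 kb of chromosome 7 for MNX1. This gave 82 of the 112903 deposited regions, made up of 61 of the 89929 regions that differed between genotypes and 21 of the 22974 regions of the wild-type clusters. The accessibility of chromatin had been measured by ATAC-seq, which marks DNA that a transposase can reach, in HUES8, an established human embryonic stem cell line. HNF6 knockout cells and wild-type control cells were sampled undifferentiated (ESC) and at 4 later steps of a culture protocol that leads to pancreas: definitive endoderm (DE), primitive gut tube (GT), pancreatic endoderm (PE) and, last, pancreatic progenitors (PP). Each genotype and stage had 3 samples, 30 in all. HNF6, also called ONECUT1, is a homeodomain transcription factor of developing liver and pancreas. The labels do not say how the gene was disrupted, whether the knockout line is 1 clone, or whether the 3 samples of a group are separate differentiations, so the spread between samples may be technical. The lists measure neither RNA nor protein, and the loss of HNF6 and the stage labels were not checked here.

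The 5 genes encode factors that together set up the pancreatic epithelium. PDX1 is a homeodomain factor without which no pancreas forms in mouse or human, and PTF1A is a basic helix-loop-helix factor that specifies multipotent progenitors and later acinar cells. SOX9 is an HMG-box factor that keeps progenitors in the cell cycle and marks future duct. NKX6-1, another homeodomain factor, marks the progenitors that can form endocrine and beta cells, and MNX1 is a homeodomain factor that the dorsal pancreatic bud needs in mouse. In mouse, HNF6 acts upstream of Pdx1 in the early pancreatic endoderm. A gain or loss of accessibility near such a gene marks a stretch where nucleosomes or bound factors may differ, but it does not measure the gene's RNA.

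Each differential region carries 3 knockout and 3 control values, a log2 ratio and a -log10 p, all set by the authors. Whether the values are read counts or scaled signal is not stated, and the lists hold no library totals, so depth and the precision it gives are unknown. Levels are compared only within a stage. Log2 ratios below are knockout over control, so that a positive one means more accessible in knockout cells, and "upstream" and "downstream" follow the direction of transcription. A place that is not in a stage's lists has no value at that stage, which does not show that the genotypes were alike there. In bulk cultures, a smaller share of cells with an open region and less opening per cell cannot be told apart.

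The hg19 sequence of the regions was not used here. RefSeq promoters, on the GRCh38.p14 build, were at hand for 2 of the 5 genes, NKX6-1 and MNX1, both of which had listed regions within 5 kb upstream of the start. The 250 bases before each start are shown because a core of the motif bound by HNF6, ATTGAT or ATCGAT on either strand, was searched in them. Neither window holds it, so no base is in capitals, and 2175 of 35116 RefSeq promoter windows of that length (6.19%) do. This says only that these letters are not in these windows. The NKX6-1 window is chr4:84499293-84499542 and the MNX1 window, at the more upstream of its RefSeq starts, chr7:157010664-157010913, both on the minus strand and read 5′ to 3′.
NKX6-1: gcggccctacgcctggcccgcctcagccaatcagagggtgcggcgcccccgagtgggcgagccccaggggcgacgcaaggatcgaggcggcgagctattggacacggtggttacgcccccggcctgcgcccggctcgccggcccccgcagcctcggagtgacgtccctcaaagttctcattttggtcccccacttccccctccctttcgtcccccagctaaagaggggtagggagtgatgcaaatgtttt
MNX1: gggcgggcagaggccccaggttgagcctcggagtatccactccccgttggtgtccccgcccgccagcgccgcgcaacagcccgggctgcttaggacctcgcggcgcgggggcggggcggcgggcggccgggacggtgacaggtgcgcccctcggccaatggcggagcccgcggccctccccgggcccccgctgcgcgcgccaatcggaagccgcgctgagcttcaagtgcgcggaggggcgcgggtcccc

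All 5 loci held listed differences, and at PE most of them were higher in control cells. Of the 61 regions, 32 were more accessible in knockout cells and 29 in control cells (52.5% higher in knockout cells, 95% Wilson interval 40.2 to 64.5), where 68.1% of all listed regions were higher in knockout cells. At PE 2 of 12 listed regions were higher in knockout cells (16.7%, 95% Wilson interval 4.7 to 44.8), both at PTF1A. The other 10 were higher in control cells, at SOX9 (5), MNX1 (3) and NKX6-1 (2). Among all PE regions 43.9% were higher in knockout cells, a share inside that interval. At PP 11 of 19 regions at the loci were higher in knockout cells (57.9%, 95% Wilson interval 36.3 to 76.9), where 88.7% of all PP regions were. The 8 PP regions higher in control cells lay at SOX9 (4), NKX6-1 (2), PDX1 (1) and PTF1A (1). Earlier stages were nearer the whole lists, with 9 of 14 regions higher in knockout cells at ESC (57.4% of all ESC regions), 6 of 11 at DE (62.8%) and 4 of 5 at GT (73%). The Wilson interval covers counting error only, and no test of these shares was made because neighbouring regions and regions of 1 list are not independent.

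**Figure D1:**
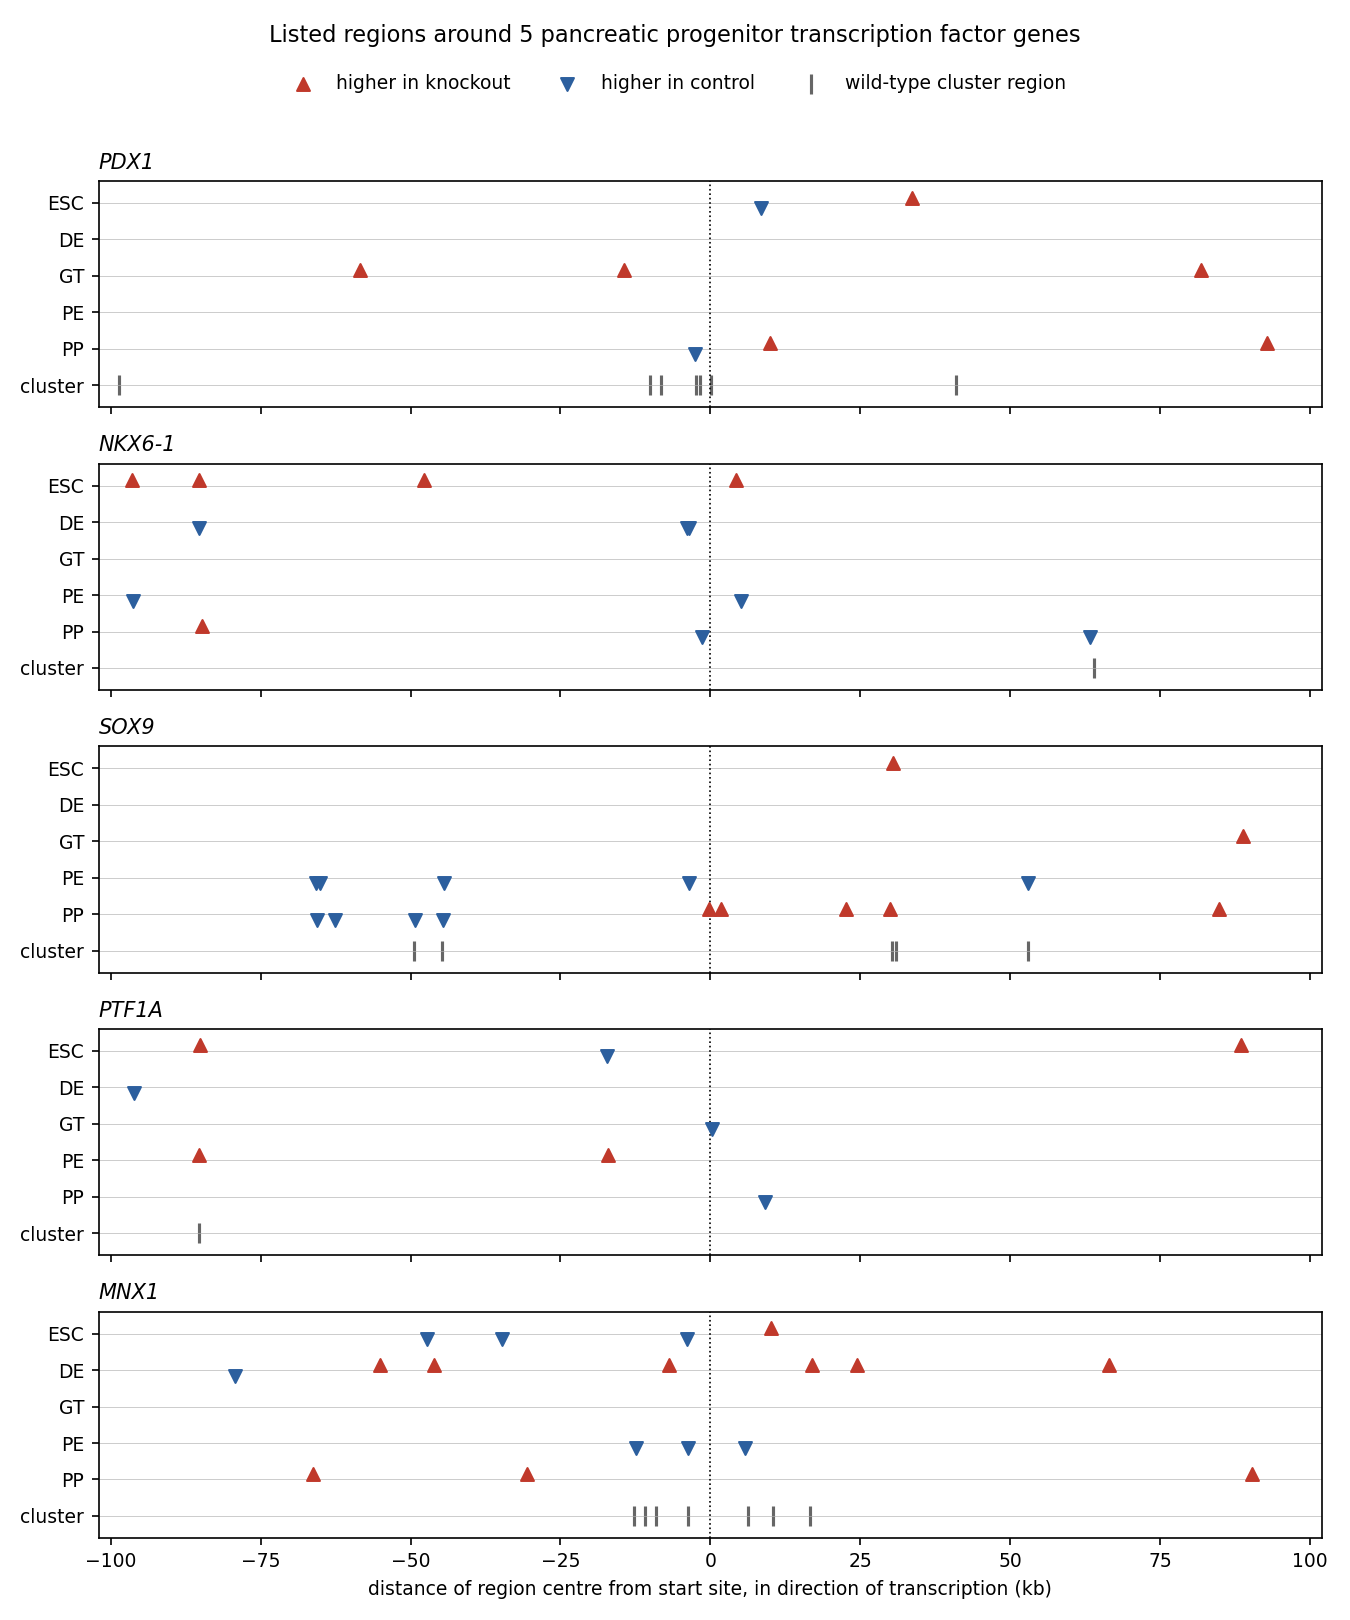
Each mark is the centre of a listed region, placed by its distance in kb from the start site in the direction of transcription; marks have a fixed size that does not show region width. Red upward marks are regions higher in knockout cells, blue downward marks regions higher in control cells, and grey bars the 21 wild-type cluster regions. At SOX9 the 4 PP regions higher in control cells all lie upstream, and no PDX1 region is listed at DE or PE.

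**Figure D2:**
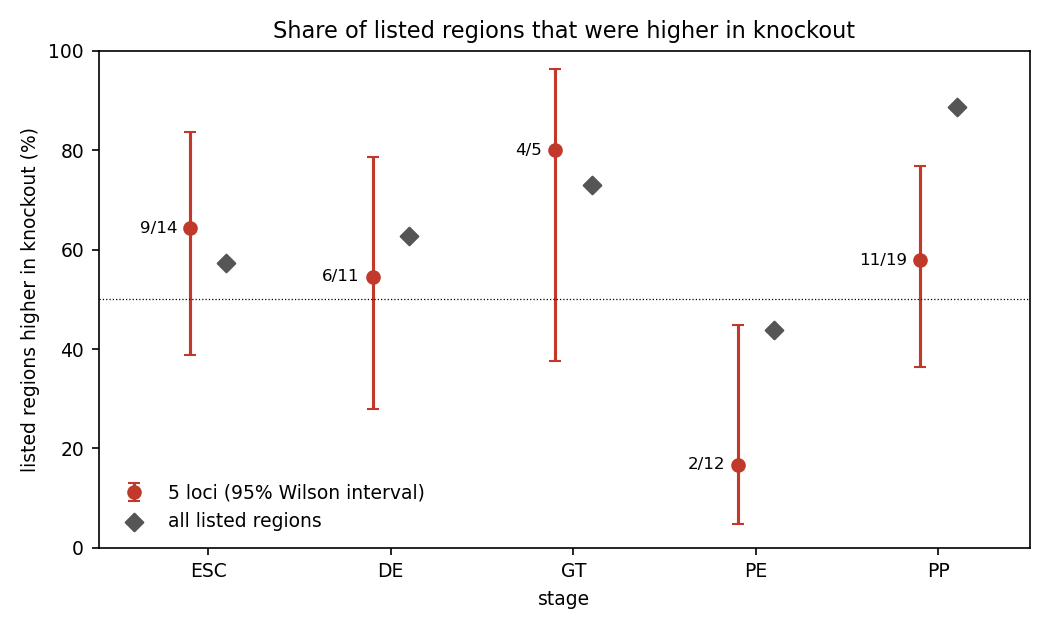
The vertical axis gives the percentage of listed regions that were higher in knockout cells at each stage, for the 5 loci (red, with the 95% Wilson interval and the count) and for all listed regions (grey). The loci had 2 of 12 at PE and 11 of 19 at PP, against 43.9% and 88.7% of all listed regions.

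The differences were moderate. The median size of the log2 ratio was 0.79 in the 32 regions higher in knockout cells and 0.72 in the 29 higher in control cells, where all listed regions had 0.96 and 0.90. Ratios of at least 2-fold were found in 18 of the 61 regions (29.5%), against 45.4% of all listed regions. The 3 knockout values and the 3 control values did not overlap in 48 of the 61 (78.7%), close to the 78.5% of all listed regions. A -log10 p of at least 10 was reached by 3 of the 61 regions, 1 each at NKX6-1 at ESC, NKX6-1 at PP and SOX9 at PE, where 10% of all listed regions reached it. An exact two-sided permutation test of 3 values against 3 has 0.1 as its smallest p, so it could not single out any region here. The lists rest on the authors' own selection, whose method is not given. The loci were denser in listed regions than the genome, with 17 at MNX1, 16 at SOX9, 12 at NKX6-1 and 8 each at PDX1 and PTF1A, where 200 kb of the genome held 6 on average. The loci of other genes were not compared.

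PDX1 had 8 listed differences, none of them at DE or PE. The difference nearest to its start was at PP, at chr13:28491201-28491800, 2.8 to 2.2 kb upstream, in the stretch known to hold conserved control elements of the gene. In the authors' deposited table it had values of 209, 302 and 303 in knockout cells and 330, 492 and 400 in control cells, a log2 ratio of -0.58 with a -log10 p of 5.74. All knockout values were below all control values, though the highest knockout value was close to the lowest control value. It covered a region of wild-type cluster 8, and 4 other cluster 8 regions within 10.3 kb of the start, among them the one at the start itself, were in no list at any stage. A region 40.7 to 41.2 kb downstream, on the side of CDX2, the next protein-coding gene and a regulator of intestine, was also in cluster 8 and in no list. The locus's other cluster region, in cluster 7, lay 98.9 to 98.4 kb upstream and was in no list either.

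Of the 8 PDX1 differences over all stages, 6 were higher in knockout cells, near the 68.1% of all listed regions. At GT 3 of 3 listed regions were higher in knockout cells, as were 75.1% of the listed GT regions of chromosome 13. The one at chr13:28435301-28435750, 58.7 to 58.2 kb upstream, had 125, 106 and 50 in knockout cells and 7, 33 and 35 in control cells, by the authors' deposited table (log2 ratio 1.86). The next, at chr13:28479251-28479850, 14.7 to 14.2 kb upstream, had 106, 162 and 81 against 29, 51 and 42 in that table (1.49). In both, the genotypes did not overlap. The remaining one, 80.7 to 82.8 kb downstream, had a log2 ratio of 0.63. At PP the regions 9.4 to 10.4 kb and 92.7 to 93.0 kb downstream were higher in knockout cells, with log2 ratios of 0.75 and 1.70. The larger ratio rested on 1 value: the authors' deposited table gives 136, 24 and 65 in knockout cells and 23, 28 and 16 in control cells, and without the first knockout value the log2 ratio was 0.96. At ESC, before pancreatic genes are normally active, the region 33.2 to 34.0 kb downstream was higher in knockout cells (343, 473 and 263 against 180, 217 and 225 in the authors' deposited table, log2 ratio 0.79). The ESC region 7.9 to 8.9 kb downstream was higher in control cells (-0.64), with overlapping genotypes, and its log2 ratio was -0.34 without the third knockout value.

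NKX6-1 had lower accessibility in knockout cells close to its start at DE and PP and at a distant downstream region at PP. At PP the region at chr4:85354851-85356400, 62.6 to 64.1 kb downstream, had 376, 287 and 312 in knockout cells and 628, 568 and 505 in control cells, by the authors' deposited table. The genotypes were well apart, with a log2 ratio of -0.80 and a -log10 p of 13.2, the highest of any region at the 5 loci that was higher in control cells. It overlaps the locus's one wild-type cluster region, in cluster 5. Close to the start, chr4:85420201-85420750, 1.8 to 1.2 kb upstream, had 565, 364 and 576 against 674, 840 and 555 at PP in the authors' deposited table. Here the genotypes overlapped, and the log2 ratio of -0.46 was -0.27 without the second knockout value and -0.29 without the second control value. At DE a pair of neighbouring regions was lower in knockout cells. The first, chr4:85422301-85422700, 3.7 to 3.3 kb upstream, had 22, 39 and 12 in knockout cells and 76, 118 and 107 in control cells, by the authors' deposited table (4-fold lower). The second, 4.2 to 3.8 kb upstream, had 25, 59 and 24 against 80, 88 and 124 in that table (-1.41). In both regions every knockout value was below every control value, at low levels. All 3 listed DE regions of the locus were higher in control cells, where 70.7% of the listed DE regions of chromosome 4 were higher in knockout cells.

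At ESC the NKX6-1 locus ran the other way, with 4 of 4 listed regions higher in knockout cells and no overlap of the genotypes in any of them. On chromosome 4 as a whole 89.7% of listed ESC regions were higher in knockout cells. At PE both listed regions were higher in control cells, where 21.2% of the PE regions of the chromosome were higher in knockout cells. At PP 1 of 3 was higher in knockout cells, where 97.6% of the chromosome's were. The part of the chromosome's balance in these results was not tested. The PE region 4.8 to 5.4 kb downstream had 46, 82 and 76 in knockout cells and 85, 208 and 156 in control cells, by the authors' deposited table (log2 ratio -1.13), the lowest control value lying just above the knockout values. The broad region around 85 kb upstream, on the side of the next protein-coding gene, CDS1, had the highest -log10 p at the 5 loci (18.2 at ESC). In this region the authors' deposited table gives 1551, 1416 and 1945 in knockout cells and 1273, 841 and 1281 in control cells at ESC (log2 ratio 0.53). No hg19 position of CDS1 was at hand, so whether the region lies at the start of that gene is not known.

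SOX9 lost accessibility upstream and gained it around the start and downstream in knockout cells at PP. The 4 PP regions higher in control cells lay 66.3 to 44.5 kb upstream, and the 5 higher in knockout cells lay from 0.5 kb upstream to 85.2 kb downstream. The split by side was seen after the values were known. In all 9 the genotypes did not overlap. Of the listed PP regions of chromosome 17, 90.9% were higher in knockout cells. Up to the start, chr17:70116501-70117000 had 328, 355 and 264 in knockout cells and 185, 163 and 228 in control cells, by the authors' deposited table (log2 ratio 0.71). Just downstream, within 2.5 kb, chr17:70118051-70119500 had 362, 545 and 459 against 290, 302 and 286 (0.64) in that table. The knockout gains further downstream were larger in ratio and lower in level, with log2 ratios of 1.34 at 22.4 to 22.8 kb, 1.91 at 29.8 to 30.1 kb and 0.88 at 84.5 to 85.2 kb.

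The upstream losses at SOX9 fell on 2 regions of wild-type cluster 8 and on places outside the clusters. At PP the listed region chr17:70072101-70072550, which lies inside one of these cluster 8 regions, 44.9 to 44.5 kb upstream, had 319, 475 and 423 in knockout cells and 551, 695 and 576 in control cells, by the authors' deposited table (log2 ratio -0.58). The listed region over the other, 49.6 to 49.0 kb upstream, had 165, 187 and 230 against 307, 272 and 327 (-0.64) in the same authors' deposited table. Outside the clusters, chr17:70050701-70051950, 66.3 to 65.0 kb upstream, had 213, 224 and 256 against 322, 418 and 401 in the authors' deposited table (-0.72), and the region 62.8 to 62.4 kb upstream had a log2 ratio of -1.31. All knockout values were below all control values in these 4 regions.

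At PE all 5 listed SOX9 regions were higher in control cells, where 38.1% of the PE regions of chromosome 17 were higher in knockout cells. The largest difference was at chr17:70051701-70052000, 65.3 to 65.0 kb upstream, with 14, 36 and 0 in knockout cells and 108, 52 and 132 in control cells, by the authors' deposited table. The log2 ratio was -2.48, with a -log10 p of 12.4, and it was -3.62 without the second knockout value. A neighbour 65.9 to 65.6 kb upstream had 49, 29 and 20 against 103, 67 and 100 in the authors' deposited table (-1.43). These narrow regions had low values, and the genotypes did not overlap in either. The other 3 were smaller, with overlapping genotypes: 44.9 to 44.0 kb upstream (-0.45, and -0.26 without the third control value), 5.0 to 2.2 kb upstream (-0.38), and 52.7 to 53.2 kb downstream (-0.67). SOX9 had 1 listed region at ESC, 1 at GT and none at DE, both higher in knockout cells. The GT region, 88.5 to 89.3 kb downstream, had a log2 ratio of 0.99, or 0.64 without the third knockout value.

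PTF1A differed at its own start at GT, before the pancreatic stages. The region chr10:23480301-23482100, from 0.7 kb upstream to 1.1 kb downstream, had 231, 242 and 300 in knockout cells and 520, 285 and 470 in control cells, by the authors' deposited table. Its log2 ratio was -0.72 and its -log10 p 7.47, while 1 of the 3 control values lay within the knockout range. At PP the region 8.9 to 9.4 kb downstream was lower in knockout cells, with 101, 23 and 62 against 143, 140 and 130 in the authors' deposited table (-1.14, or -0.75 without the second knockout value), where 95.4% of the listed PP regions of chromosome 10 were higher in knockout cells. At PE both listed regions were higher in knockout cells, which makes PTF1A the exception among the 4 loci listed at that stage, and 44.1% of the listed PE regions of chromosome 10 were higher in knockout cells. The first, chr10:23463601-23464350, 17.4 to 16.6 kb upstream, had 199, 208 and 330 in knockout cells and 142, 141 and 156 in control cells, by the authors' deposited table (0.74, or 0.47 without the third knockout value). The second, 85.6 to 84.9 kb upstream, on the side of MSRB2, had overlapping genotypes and a log2 ratio of 0.38, or 0.19 without the first control value. At ESC the region 88.0 to 89.1 kb downstream was higher in knockout cells (0.72), and at DE the region 96.9 to 95.5 kb upstream was lower (-0.61). The genotypes did not overlap in these 2. Whether the DE region lies at the start of MSRB2 is not known, for want of an hg19 position of that gene.

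**Figure D3:**
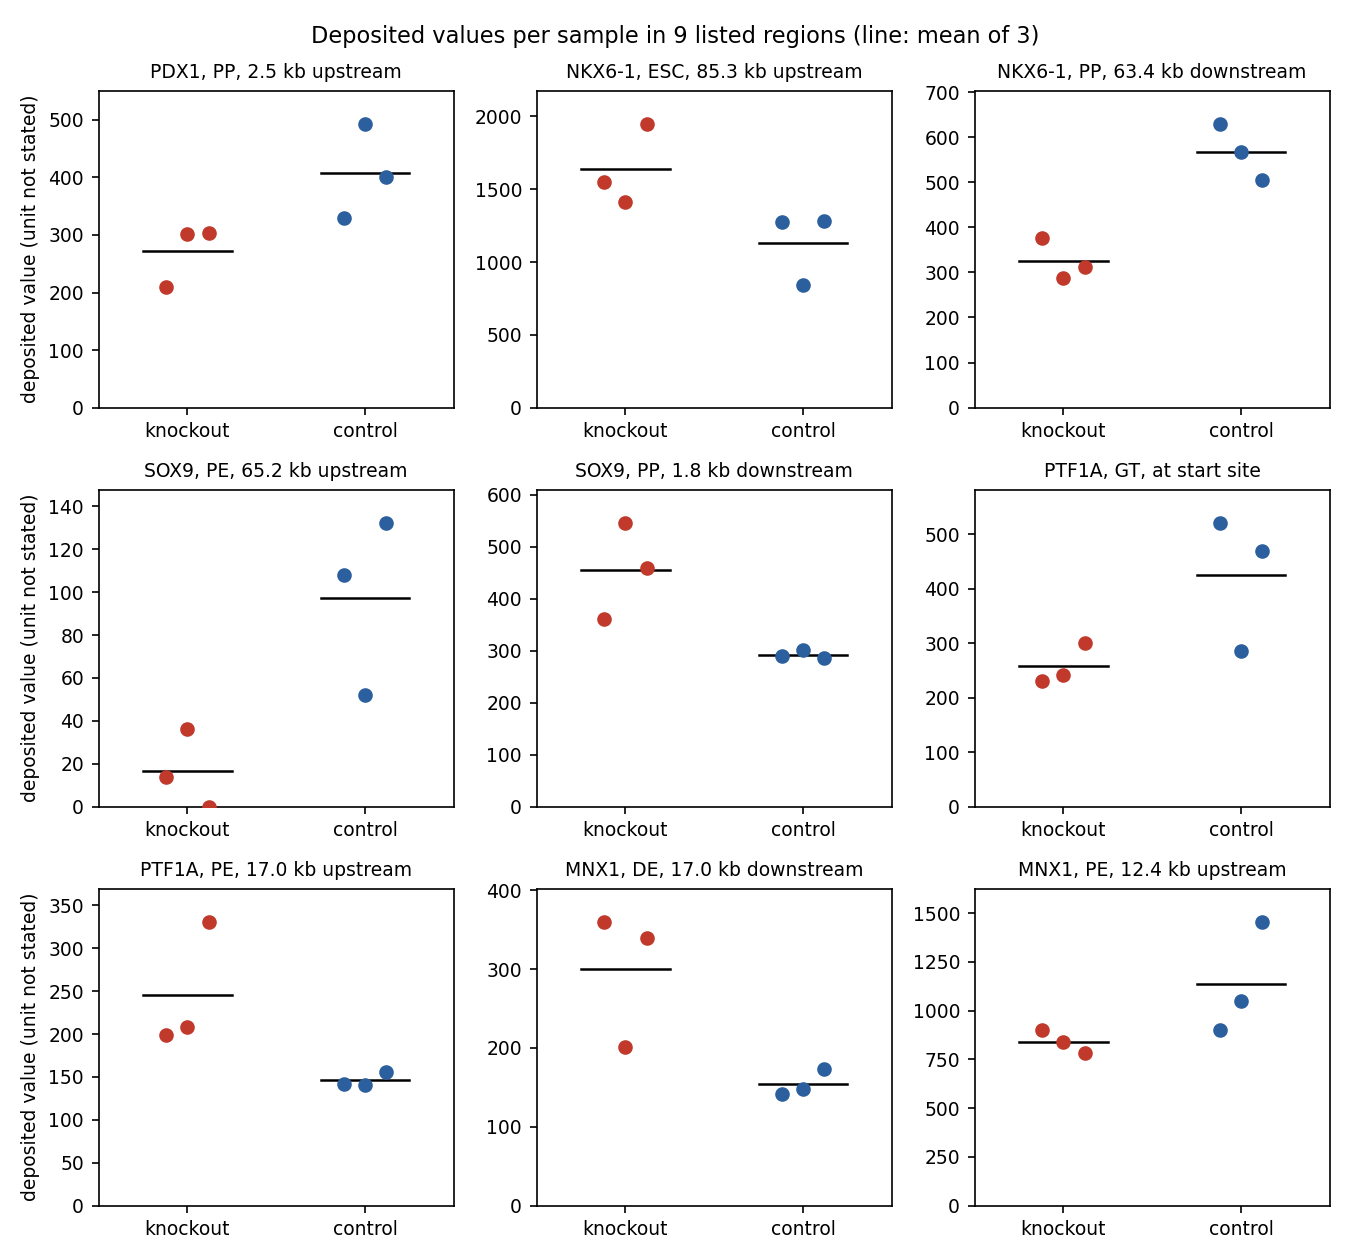
Deposited values of the 3 knockout (red) and 3 control (blue) samples in 9 of the listed regions, with the mean as a line; the vertical axes start at 0 and their unit is not stated. The SOX9 region shown for PE had 14, 36 and 0 in knockout cells against 108, 52 and 132 in control cells, and the PTF1A start region at GT shows 1 control value within the knockout range.

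Most listed MNX1 regions at DE and all 3 at PP were more accessible in knockout cells. Close to its start MNX1 was less accessible in knockout cells at PE. The region 4.3 to 3.5 kb upstream was also less accessible in them at ESC (log2 ratio -0.78). At DE, however, the region 8.0 to 5.7 kb upstream was more accessible in knockout cells (log2 ratio 0.49), with no overlap of the genotypes. At PE all 3 listed regions lay within 13.4 kb of the start, were higher in control cells and overlapped wild-type cluster regions, while 34.9% of the PE regions of chromosome 7 were higher in knockout cells. The region chr7:156814551-156816350, 13.3 to 11.6 kb upstream, had 900, 840 and 785 in knockout cells and 903, 1049 and 1452 in control cells, by the authors' deposited table (log2 ratio -0.43, or -0.21 without the third control value). The region chr7:156806251-156807200, 4.2 to 3.3 kb upstream, had 939, 986 and 728 against 1021, 1036 and 1365 in that table (-0.37). That ratio was -0.24 without the third knockout value and -0.22 without the third control value. Downstream, chr7:156796701-156797600, at 5.4 to 6.3 kb, had 628, 681 and 697 against 836, 823 and 955 in the authors' deposited table (-0.38). The genotypes did not overlap in these 3, but in the first they were separated by 3 units only between the nearest values.

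At DE 6 of 7 listed MNX1 regions were higher in knockout cells, against 58.4% on chromosome 7. The leading one, chr7:156785451-156786650, 16.4 to 17.5 kb downstream, had 359, 201 and 339 in knockout cells and 142, 148 and 173 in control cells, by the authors' deposited table (log2 ratio 0.95, -log10 p 8.89). It holds a cluster 4 region, and its genotypes did not overlap. The other 5 had log2 ratios from 0.49 to 1.13, and 3 of these 5 had genotypes that did not overlap. The DE region higher in control cells, 79.4 to 79.0 kb upstream, had 0, 39 and 51 in knockout cells against 63, 104 and 87 in the authors' deposited table. Its log2 ratio of -1.47 was -0.90 without the first knockout value and -2.06 without the third. At ESC 1 of 4 listed regions was higher in knockout cells and 3 in control cells, where 53% of the listed ESC regions of chromosome 7 were higher in knockout cells. The largest ratio at the 5 loci was among these 3, at chr7:156850151-156850400, 47.4 to 47.2 kb upstream, with 4, 1 and 11 in knockout cells and 40, 54 and 61 in control cells, by the authors' deposited table (-3.06). It was also the narrowest of the 61, at 250 bp, and its values were low. The ESC region higher in knockout cells, 9.3 to 11 kb downstream, had a log2 ratio of 0.45, or 0.24 without the third knockout value. At PP all 3 listed regions were higher in knockout cells, 30.4 to 90.9 kb from the start, and 2 of them had overlapping genotypes. Of these, the one 89.8 to 90.9 kb downstream had a log2 ratio of 0.79, or 0.37 without the first knockout value. On chromosome 7, 79.9% of listed PP regions were higher in knockout cells.

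The 61 regions formed 51 separate places, and 8 of these were listed at more than 1 stage. In 5 of the 8 the direction was the same at each listed stage. Of these, 2 lay upstream of SOX9 and were higher in control cells at both PE and PP. A SOX9 place near 30 kb downstream was higher in knockout cells at ESC and PP, with 566, 813 and 707 against 531, 510 and 494 at ESC and 85, 53 and 62 against 26, 24 and 1 in the narrower PP region, in the authors' deposited tables. A PTF1A place 85.6 kb upstream was higher in knockout cells at ESC (0.91) and PE (0.38). The MNX1 place about 4 kb upstream was higher in control cells at ESC and PE. At ESC it had 182, 268 and 274 in knockout cells and 474, 399 and 373 in control cells, by the authors' deposited table (-0.78), with no overlap.

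In the other 3 places the direction differed between stages. The place 85 kb upstream of NKX6-1 was higher in knockout cells at ESC (0.53) and at PP (0.39, or 0.24 without the third control value). At DE it was lower in knockout cells, with 726, 764 and 741 against 1189, 953 and 715 in the authors' deposited table (-0.36, or -0.17 without the first control value). The genotypes overlapped at DE and not at ESC or PP. The remaining 2 places, 96 kb upstream of NKX6-1 and 17 kb upstream of PTF1A, had genotypes apart in opposite directions at ESC and PE. Whether the genotype effect differed between stages was not tested, since a region was listed because it differed at its stage.

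**Figure D4:**
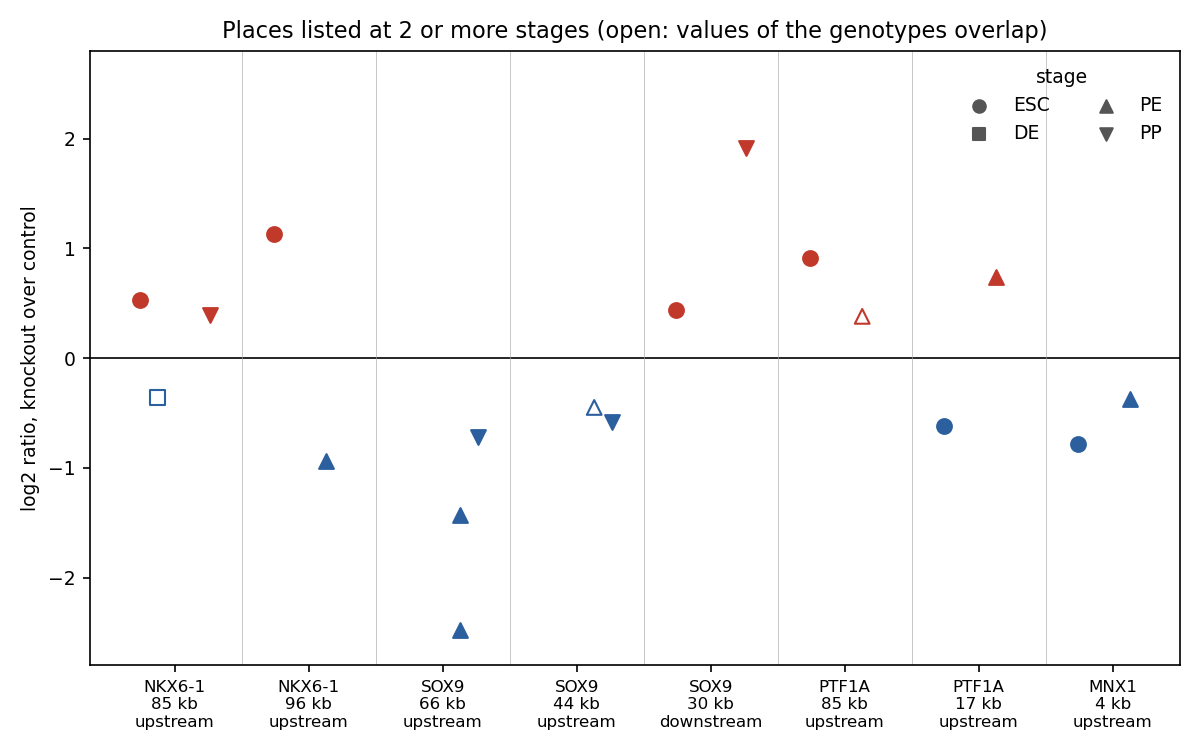
Log2 ratios, knockout over control, in the 8 places listed at 2 or more stages, with 1 mark per listed region and a shape for each stage; red is higher in knockout cells, blue higher in control cells, and open marks have overlapping genotypes. The 2 upstream SOX9 places lie below 0 at both PE and PP, and 3 places have marks on both sides of 0.

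The wild-type cluster regions, by their label, were chosen without the knockout. Control cells enter every list, so overlap with a list may not be independent of that choice. The loci were also denser in listed regions than the genome. Of the 21 at the loci, 10 were in cluster 8 (47.6%), a cluster that holds 12.3% of all cluster regions, and 6 of these 10 were at PDX1. Of the others, 4 were in cluster 4, 3 in cluster 6, 2 in cluster 1 and 1 each in clusters 5 and 7, with none in clusters 2, 3 and 9. The clusters carry numbers only, and what each number stands for is not stated in the labels or files. At least 1 list overlapped 13 of the 21 regions (61.9%, 95% Wilson interval 40.9 to 79.2), against 38.4% of all cluster regions. Regions higher in knockout cells at ESC overlapped 4 of the 21, at SOX9 (2, both by the same listed region), PTF1A and MNX1, against 3.73% of all. Regions higher in control cells overlapped 5 of the 21 at PE, at MNX1 (3) and SOX9 (2), against 6.44% of all cluster regions. At PP they overlapped 4 of the 21, at SOX9 (2), PDX1 and NKX6-1, against 2.47% of all. Only these lists, which overlapped more of the 21 than any other list did, were set against all cluster regions. Each of the other lists overlapped fewer of the 21, so the excess does not describe the lists in general. In cluster 8 as a whole the regions higher in control cells overlapped 18.4% at PE and 6.2% at PP, and of its 10 regions at the loci they overlapped 2 at PE and 3 at PP. Regions higher in knockout cells at PP overlapped 15.2% of cluster 8 and 0 of its 10 regions at the loci. The counts at the loci are small, several regions share a locus, and no test was made.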

How the data were processed

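Chromatin accessibility was measured by ATAC-seq in 30 HUES8 samples, 3 for each of 2 genotypes at 5 stages. The submitters' processing notes name Bowtie2, MACS2 and hg19. Versions, any scaling and the caller of differential regions are not given in the labels or files. The authors deposited lists of 500 bp wild-type cluster regions and lists of differential regions, 1 per genotype and stage, with whole numbers whose unit is not stated, the authors' -log10 p (at least 5.00) and the authors' log2 ratio (control over knockout). That deposited log2 ratio was recomputed from the values, with 1 added to each mean, to within 5.0e-12, and is printed with its sign turned, as knockout over control. The first set of 3 values was read as knockout because it was the higher one in every region of the knockout lists and the lower one in every region of the control lists (0 exceptions). The columns carry no sample names, so values are called first, second and so on in file order. No count model was run. No 2 values of a set were equal in more than 1.34% of a list's regions.

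Region membership, overlap (at least 1 bp), Wilson intervals and exact permutation tests were computed with Python 3.11.15, numpy 2.4.6 and scipy 1.17.1; the code was tested on simulated regions. Positions are 1-based. Strands of NKX6-1 and MNX1 came from RefSeq (GRCh38.p14), which also gave neighbouring gene names but no coordinates on hg19; those of PDX1, SOX9 and PTF1A are general knowledge. Regions were named by a rule: the highest -log10 p of each locus and list, those within 2 kb of a start, and places listed at 2 or more stages; others named were chosen after their values were seen. Other pancreatic genes were not placed, for want of an hg19 annotation. The members, lists and rules were chosen with earlier results of these data known. Alternatives were a 50 kb window, placing regions by their centre, a -log10 p of at least 10, an overlap of 50% of the cluster region, a pseudocount of 10 and leaving out each value in turn.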

Additional observations from a re-analysis of the deposited data

Results flagged for a closer look

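At 2 places both genotypes' values were apart at 2 stages and in opposite directions. The difference between stages was not tested. The place 96 kb upstream of NKX6-1 had a log2 ratio, knockout over control, of 1.13 at ESC, with 157, 87 and 181 in knockout cells and 79, 49 and 64 in control cells, by the authors' deposited table. At PE it was -0.94, with 135, 103 and 146 against 235, 214 and 288 in the authors' deposited table. Of the listed regions of chromosome 4, 89.7% at ESC and 21.2% at PE were higher in knockout cells. At DE 0 of 3 listed regions of the locus were higher in knockout cells, against 70.7% on the chromosome. At PP 1 of 3 were, against 97.6%. The part of the chromosome's balance was not tested.

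The place 17 kb upstream of PTF1A had a log2 ratio of -0.62 at ESC, with 338, 187 and 304 in knockout cells and 378, 437 and 463 in control cells, by the authors' deposited table, and of 0.74 at PE. Without the second knockout value the ESC ratio was -0.41. On chromosome 10, 50.2% of listed ESC regions and 44.1% of listed PE regions were higher in knockout cells.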

How the results depend on the processing

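Counts of listed regions at the loci depended on the window and on the authors' threshold. Within 50 kb the knockout lists held 5 regions at ESC and 6 at PP, with 1 each at GT and PE, and the control lists 2 at DE, 6 at PE and 5 at PP; the other 3 counts stayed within 1.5 times. With a -log10 p of at least 10 the knockout lists kept 1 region at ESC and 0 at the other stages, and the control lists kept 1 at PE, 1 at PP and 0 at ESC, DE and GT. Fewer regions are counted by construction in both. Placing regions by their centre changed no count. The number of regions with genotypes apart, 48, was 51 to 53 when each of the 3 values of either genotype was left out in turn. By construction, leaving out a value can only keep or raise this count, so it does not show robustness. The 13 cluster regions that overlapped a list were 10 within 50 kb and 13 with an overlap of 50%. For the 38 regions named by the rule, 266 log2 ratios under a pseudocount of 10 or without 1 value kept their direction and moved by less than the spread between samples, the largest change being 1.14. A pseudocount cannot reverse a ratio, and leaving out 1 value cannot where the genotypes do not overlap. A mean of 3 values also moves by less than their range when 1 is left out. These outcomes are therefore largely fixed by construction and do not show robustness. Some ratios shrank strongly, as at NKX6-1 at DE, from -0.36 to -0.17 without the first control value. No paired analysis was possible because the value columns carry no replicate numbers. Depth is unknown, so its limit on low values could not be given.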

Other observations

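Some listed regions lay near each other without overlapping, were listed at different stages and had opposite directions. They are different stretches of DNA, each with values at its own stage only, so no change of direction at a place is shown. Downstream of NKX6-1, chr4:85414151-85415150 was higher in knockout cells at ESC, with 549, 595 and 461 in knockout cells and 355, 394 and 349 in control cells, by the authors' deposited table. The region that abuts it, chr4:85413601-85414150, was lower in knockout cells at PE (log2 ratio -1.13). Upstream of MNX1, neighbouring regions differed the other way round: the one 47.4 to 47.2 kb upstream was lower in knockout cells at ESC (-3.06), and the one 46.4 to 45.7 kb upstream was higher at DE, with 176, 114 and 137 against 75, 54 and 65 in the authors' deposited table (1.13).

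Just outside the 100 kb limit, the first listed regions lay 102.8 kb (MNX1), 102.9 kb (PDX1), 118.3 kb (NKX6-1), 123.3 kb (PTF1A) and 124.5 kb (SOX9) from the start sites, with log2 ratios of 1.64, -1.07, 0.91, -0.75 and 2.77. The last ones inside lay 89.8, 92.7, 96.1, 95.5 and 88.5 kb away, in the same order of genes, with log2 ratios of 0.79, 1.70, 1.13, -0.61 and 0.99.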
